A study of Mus musculus with 6 samples.

Results

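The 10 genes described here are the core of the Fas and TNF death receptor pathway, and they were chosen by symbol among 55401 genes measured in microglia of a lupus-prone mouse strain and its control. They are the ligand genes Fasl, Tnf and Tnfsf10, the receptor genes Fas, Tnfrsf10b, Tnfrsf1a and Tnfrsf1b, and the genes Fadd, Casp8 and Cflar of the complex inside the cell. All 10 were found in the table and passed the filter on low counts, Fasl through its counts in MRL/lpr. MRL/lpr mice carry lpr, a retroviral element inserted in an intron of Fas that disrupts most of its transcripts, and MRL/mpj mice are the related strain without it. Both groups were untreated, were 6 weeks old by the labels, and gave 3 brain libraries each. The methods describe female mice, without naming the sex of the sequenced animals. Microglia were released with collagenase and DNase at body temperature, enriched on Percoll and selected with magnetic beads for CD11b, which other myeloid cells and NK cells also carry. Nothing in the labels says whether a library is 1 animal or a pool, so p-values measure the spread between these preparations, which may be technical.

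Death receptors sit in the cell membrane and carry a death domain. When Fas ligand or TRAIL (the product of Tnfsf10) binds its receptor, the adaptor FADD joins the receptor and gathers procaspase-8, which starts apoptosis. TNF acts first through TNFR1 (Tnfrsf1a) to switch on NF-kappaB, and turns to death where that signal is blocked. cFLIP, the product of Cflar, resembles caspase-8 without its activity and holds it in check, and where caspase-8 is inactive RIPK3 and MLKL can drive necroptosis instead. In the brain, microglia are a main source of TNF.

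The libraries held between 45481609 and 49846634 counts. Genes with 4 counts were far more common than genes with 3 or 5 (1234 against 377 and 254 in MRL/lpr replicate 1), so low counts move in steps and Fasl rests on few read pairs. MRL/lpr replicate 3 stood apart in the transcript CT010467.1, at 6.38% of its counts where the other libraries had 0.169% to 0.457%. Xist, which is expressed in female cells, had 8886 to 11319 counts per MRL/lpr library and 27 to 38 per MRL/mpj library, so strain and sex cannot be told apart in any comparison here. The 10 microglial markers were detected in each library and summed to between 22005 and 24078 CPM (read counts per 1e6 counts of the library, here scaled by library size) in MRL/lpr and between 27795 and 28570 in MRL/mpj, with 3 of 10 lower and 0 higher. Markers of T cells summed to between 24.5 and 31.6 CPM in MRL/lpr against 8.53 to 9.22 in MRL/mpj (8 of 10 higher), and markers of NK cells to between 14.6 and 18.0 against 4.16 to 5.46 (5 of 7 tested higher). Markers of B cells overlapped (8.98 to 9.63 against 8.93 to 10.7, 0 of 4 tested called), while the sums of monocytes (70.1 to 83.6 against 52.1 to 61.8, 3 of 6 called higher), neutrophils (432 to 478 against 380 to 427, 2 of 6) and endothelium (1683 to 1933 against 1611 to 1675, 1 of 6) lay higher in MRL/lpr. The sums of border macrophages (29.1 to 34.7 against 43.2 to 49.9, 2 of 6 called lower), neurons (10.5 to 13.1 against 24.8 to 28.2, 2 of 6), astrocytes (105 to 149 against 190 to 198, 1 of 6), oligodendrocytes (127 to 140 against 171 to 203, 2 of 6) and choroid plexus (335 to 350 against 1095 to 1177, 5 of 6) lay lower.

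Of the 10 members, 4 were higher in MRL/lpr (Tnf, Tnfsf10, Fasl and Tnfrsf10b), 0 were lower and 6 did not pass the test, where 11.1% of the 19554 genes tested were called higher and 9.06% lower. Calls are at an adjusted p under 0.05 from edgeR. Fasl passed the filter on low counts only through MRL/lpr, so it had to differ, and its place in these counts is a description. The number higher was 2, Tnf and Tnfsf10, without MRL/lpr replicate 2, MRL/mpj replicate 1 or MRL/mpj replicate 3. With a log2 fold change of at least 1 as well, 2 members were called (Tnf and Fasl), against 8.34% of all genes tested, and 1 without any of these 3 libraries in turn. In TMM-scaled CPM, the libraries of the strains did not overlap for 5 members, the same 4 and Tnfrsf1a, against 39% of all genes tested. This depends on the scale: in FPKM Tnfrsf1a overlapped, while Tnfrsf1b and Casp8 were lower in every MRL/lpr library. The share of all genes in FPKM was not computed. The median log2 fold change was 0.29 over the members, Fasl included, and -0.01 over all genes tested. In bulk RNA, more cells of a type and more RNA per cell cannot be told apart.

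**Figure D1:**
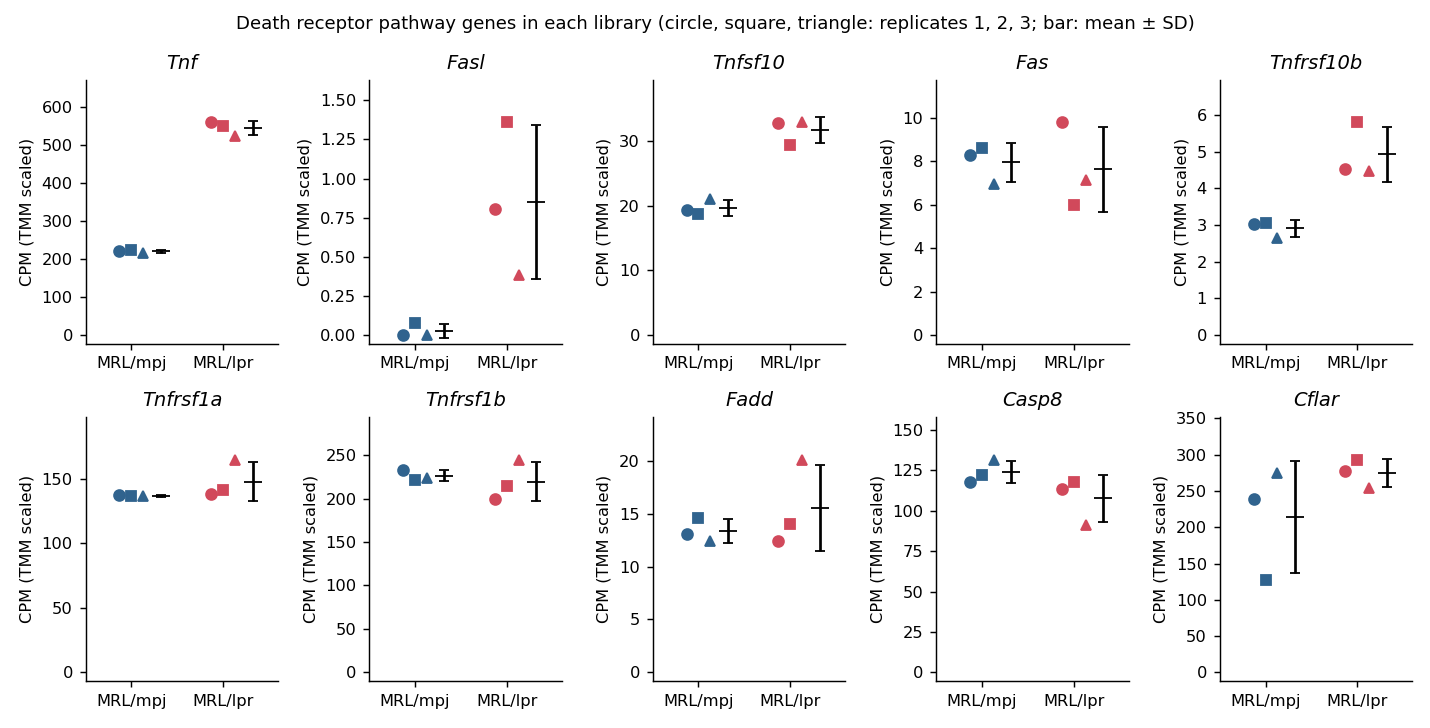
Normalised read counts (TMM-scaled CPM) of the 10 members in the 6 libraries (points), with the mean ± SD of each strain (bars). The 3 MRL/lpr libraries lie above the 3 MRL/mpj libraries for Tnf, Tnfsf10, Fasl and Tnfrsf10b, and the strains overlap for Fas.

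Upstream sequence is shown for Fas, the gene that carries lpr, and for Tnf and Tnfsf10, the pair of ligand genes whose higher level held under each of the 17 alternative settings. It is taken from RefSeq on GRCm38.p6, written 5′ to 3′ on the strand of the gene from 250 bases before the RefSeq start. The Fas and Tnf windows end at that start, and the Tnfsf10 window is printed for 201 bases, up to where GENCODE starts the gene, although all 250 were searched. The windows are chr19:34290409-34290658 (plus strand) for Fas, chr17:35202008-35202257 (minus strand) for Tnf and chr3:27316827-27317027 (plus strand) for Tnfsf10. Capitals mark matches to motifs of signal-dependent transcription factors.
Fas: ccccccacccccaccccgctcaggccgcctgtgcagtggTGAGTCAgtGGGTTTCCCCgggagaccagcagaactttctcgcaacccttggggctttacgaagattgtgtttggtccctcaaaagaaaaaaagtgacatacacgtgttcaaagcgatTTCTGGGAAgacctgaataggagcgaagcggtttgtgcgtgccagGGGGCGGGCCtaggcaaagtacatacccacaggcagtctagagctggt
Tnf: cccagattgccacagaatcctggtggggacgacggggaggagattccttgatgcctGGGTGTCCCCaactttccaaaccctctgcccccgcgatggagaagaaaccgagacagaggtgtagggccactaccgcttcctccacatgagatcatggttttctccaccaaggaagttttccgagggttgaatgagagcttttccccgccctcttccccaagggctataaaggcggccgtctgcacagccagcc
Tnfsf10: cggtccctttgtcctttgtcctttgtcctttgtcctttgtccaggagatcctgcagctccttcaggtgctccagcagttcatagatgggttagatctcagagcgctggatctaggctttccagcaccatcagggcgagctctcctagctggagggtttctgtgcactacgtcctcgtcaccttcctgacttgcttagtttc
4 motifs were searched on both strands. The kappaB motif was read as GGG, 5 unspecified bases and CC, and the ISRE motif as GAAA, 2 unspecified bases and GAAA. The GAS motif was TTCNNNGAA and the AP1 motif TGANTCA. The Fas window held 2 kappaB matches, 202 and 48 bases before the start, 1 GAS match 93 bases before it and 1 AP1 match 211 bases before it. The Tnf window held 1 kappaB match, 194 bases before the start, and the Tnfsf10 window held no match. Of 32851 promoter windows of 250 bases, 45.8% held a kappaB match, 3.0% an ISRE match, 7.0% a GAS match and 6.7% an AP1 match, so a kappaB match is common. A match describes the letters only.

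Among the ligand genes, Tnf (chr17:35199381-35202007, minus strand, GRCm38) had the highest FPKM of the 10 members in both strains. Its TMM-scaled CPM were 560, 551 and 524 in MRL/lpr and 222, 225 and 216 in MRL/mpj. Every MRL/lpr library lay far above every MRL/mpj library. The level was 545 ± 19.1 against 221 ± 4.50 (SD, n = 3), a 2.47-fold difference with a log2 fold change of 1.30 (SE 0.06, edgeR adjusted p = 1.1e-06). Dusp1, an early-response gene that enzymatic dissociation of tissue also raises, moved with Tnf: it was at 1658 CPM in MRL/lpr and 917 in MRL/mpj, and its part in the Tnf result was not tested.

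Tnfsf10 (chr3:27317028-27342427, plus strand) encodes TRAIL, which interferons induce in many cells. Its CPM were 32.7, 29.3 and 32.9 in MRL/lpr and 19.3, 18.7 and 21.1 in MRL/mpj. The lowest MRL/lpr library was above the highest MRL/mpj library. The level was 31.6 ± 2.02 against 19.7 ± 1.23 (SD, n = 3), 1.61-fold higher, with a log2 fold change of 0.68 (SE 0.10, edgeR adjusted p = 0.00107). Tnf and Tnfsf10 kept their call in all 17 alternatives, each library left out included.

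Fasl (chr1:161780689-161788495, minus strand) encodes Fas ligand, which activated T cells and NK cells display. It was counted 38, 64 and 16 times in MRL/lpr and 0, 4 and 0 times in MRL/mpj, where a count of 0 allows up to 3 counts, or 12 if each read pair was counted as 4. The MRL/lpr libraries were all higher, but the gene had the lowest FPKM of the members. In CPM these are 0.808, 1.36 and 0.383 against 0, 0.0800 and 0. The fitted log2 fold change was 4.89 (SE 1.18, edgeR adjusted p = 0.0172), a value that depends on the prior count of the fit and is not a bound. The call was lost without MRL/lpr replicate 2 (edgeR adjusted p = 0.0993), without MRL/mpj replicate 1 (0.0561) or without MRL/mpj replicate 3 (0.0556). The fitted log2 fold change was 8.35 without MRL/mpj replicate 2, the MRL/mpj library with counts, and 4.33 without MRL/mpj replicate 3. Markers of T cells and NK cells moved the same way: Lck, a T cell kinase, was at 6.26 CPM in MRL/lpr and 1.89 in MRL/mpj, and Gzma, a cytotoxic granule protease, at 4.39 against 1.35. Cd3e and Trac were at 0 in at least 1 MRL/mpj library, and the NK cell markers Ncr1 and Klrb1c in at least 1 MRL/lpr library. Ncr1 was at 0 in at least 1 MRL/mpj library too, and Klra8 was at 0 in all 6 libraries. Their part in the Fasl result was not tested.

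Among the receptor genes, Fas itself (chr19:34290666-34327772, plus strand) did not pass the test. Its CPM were 9.81, 5.99 and 7.13 in MRL/lpr and 8.29, 8.64 and 6.96 in MRL/mpj. The highest and the lowest value were both MRL/lpr libraries, and the strains overlapped. The level was 7.64 ± 1.96 against 7.96 ± 0.888 (SD, n = 3), with a log2 fold change of -0.06 and a 95% interval from -0.53 to 0.41 (edgeR adjusted p = 0.887). The sign turned without MRL/lpr replicate 2 (0.09). Although lpr disrupts most Fas transcripts, the test did not find the gene's counts lower in MRL/lpr. Gene counts do not separate intact from lpr-disrupted transcripts, and the lpr label was not tested here. Over the 6 libraries, the tested genes whose log2 CPM followed Fas most closely were Ccdc190 (Pearson r = 0.991), Il27 (0.986) and Sf3b6 (0.986), of 14921 genes compared, a description only.

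Tnfrsf10b (chr14:69767472-69784411, plus strand) encodes the death receptor for TRAIL in mice. Its CPM were 4.53, 5.80 and 4.48 in MRL/lpr and 3.02, 3.06 and 2.65 in MRL/mpj, without overlap. The level was 4.94 ± 0.750 against 2.91 ± 0.224 (SD, n = 3), 1.70-fold higher (log2 fold change 0.76, SE 0.21, edgeR adjusted p = 0.0322). The call was lost in 9 of 17 alternatives, with adjusted p between 0.0246 and 0.117 over all of them. Those 9 included each library left out except MRL/lpr replicate 3, and of these the weakest value was 0.63 on the log2 scale, without MRL/lpr replicate 2. With limma on log2(FPKM + 1) it was 0.25, on a scale that understates the change of low genes.

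The receptors of TNF did not pass the test. Tnfrsf1a (chr6:125349362-125362484, plus strand), which carries the death domain, had 138, 141 and 165 CPM in MRL/lpr and 138, 136 and 136 in MRL/mpj. The strains were separate by a margin of 137.68 against 137.61 CPM, and the log2 fold change was 0.11 (95% interval -0.07 to 0.29, edgeR adjusted p = 0.4). Its sign turned when libraries were scaled by size only (-0.016). Tnfrsf1b (chr4:145213463-145246870, minus strand), a receptor without a death domain, had 200, 214 and 245 CPM against 233, 222 and 223. The strains overlapped in CPM, with a log2 fold change of -0.04 (95% interval -0.22 to 0.14, edgeR adjusted p = 0.78). In FPKM they did not, at 45.6 to 52.8 in MRL/lpr and 54.0 to 56.8 in MRL/mpj. The FPKM ratio of Tnfrsf1b to Tnfrsf1a within a library, which does not depend on scaling, was 0.985, 1.03 and 1.01 in MRL/lpr and 1.15, 1.10 and 1.11 in MRL/mpj. The ratios did not overlap and differed by -0.15 on the log2 scale (two-sided exact permutation p = 0.1, the smallest that 3 against 3 libraries allow).

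The genes of the complex inside the cell did not pass the test. Fadd (chr7:144577318-144582463, minus strand) had 12.4, 14.0 and 20.1 CPM in MRL/lpr and 13.1, 14.6 and 12.4 in MRL/mpj. MRL/lpr replicate 3 was the highest, and without it the log2 fold change of 0.21 (95% interval -0.20 to 0.62, edgeR adjusted p = 0.484) became -0.014. Casp8 (chr1:58795374-58847503, plus strand), the initiator caspase, had 114, 118 and 91.3 CPM against 118, 122 and 132. Its log2 fold change was -0.20 (95% interval -0.43 to 0.03, edgeR adjusted p = 0.215), and -0.09 without MRL/lpr replicate 3, the lowest library. The Casp8 libraries overlapped in CPM but not in FPKM (26.0 to 35.5 in MRL/lpr, 37.9 to 42.3 in MRL/mpj).

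Cflar (chr1:58711508-58758884, plus strand) ends 36.5 kb before Casp8 starts. It had 277, 293 and 254 CPM in MRL/lpr and 239, 127 and 275 in MRL/mpj. MRL/mpj replicate 2 stood far below the other 5 libraries, and the strains overlapped. The log2 fold change was 0.36 (95% interval -0.38 to 1.11, edgeR adjusted p = 0.479), and 0.10 without that library. The FPKM ratio of Cflar to Casp8 was 0.557, 0.567 and 0.636 in MRL/lpr and 0.463, 0.238 and 0.476 in MRL/mpj. The ratios did not overlap and differed by 0.65 on the log2 scale (two-sided exact permutation p = 0.1, the smallest possible), and by 0.32 without MRL/mpj replicate 2. With any MRL/lpr library left out, the exact permutation p was 0.3.

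**Figure D2:**
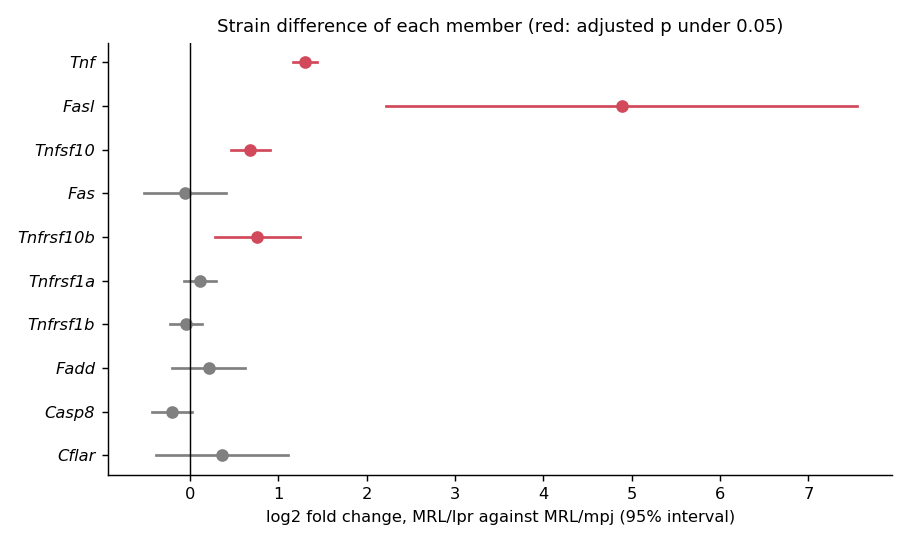
Log2 fold changes of the 10 members, MRL/lpr over MRL/mpj, with 95% intervals derived from the edgeR test, which restate its unadjusted p. The intervals of Tnf, Tnfsf10, Fasl and Tnfrsf10b lie above 0 and those of the other 6 members cross it.

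**Figure D3:**
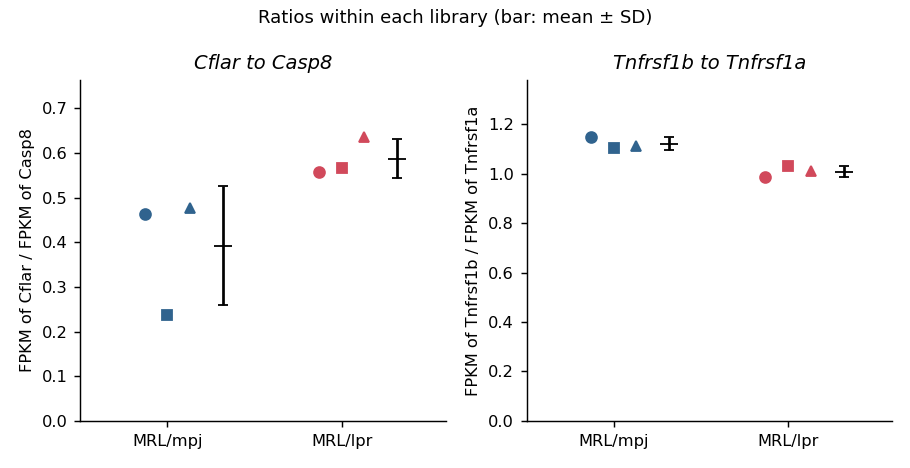
FPKM ratios within each library (points) for Cflar to Casp8 and Tnfrsf1b to Tnfrsf1a, with the mean ± SD of each strain (bars). MRL/mpj replicate 2 has the lowest Cflar to Casp8 ratio, 0.238.

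Levels can be set against each other between genes only per length, in FPKM. In MRL/lpr the order was Tnf (285), Tnfrsf1b (49.1), Tnfrsf1a (48.7), Casp8 (31.9), Cflar (18.6), Tnfsf10 (5.14), Fadd (3.38), Fas (3.17), Tnfrsf10b (0.777) and Fasl (0.370), and the neighbours Tnfrsf1b and Tnfrsf1a, and Fadd and Fas, overlapped between libraries. In MRL/mpj it was Tnf (125), Tnfrsf1b (55.1), Tnfrsf1a (49.1), Casp8 (39.8), Cflar (15.7), Fas (3.58), Tnfsf10 (3.48), Fadd (3.19), Tnfrsf10b (0.493) and Fasl (0.013), with overlap between Fas and Tnfsf10 and between Tnfsf10 and Fadd. In both strains Tnf, Tnfrsf1a and Tnfrsf1b had higher FPKM than Fas and Fasl in every library.

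**Figure D4:**
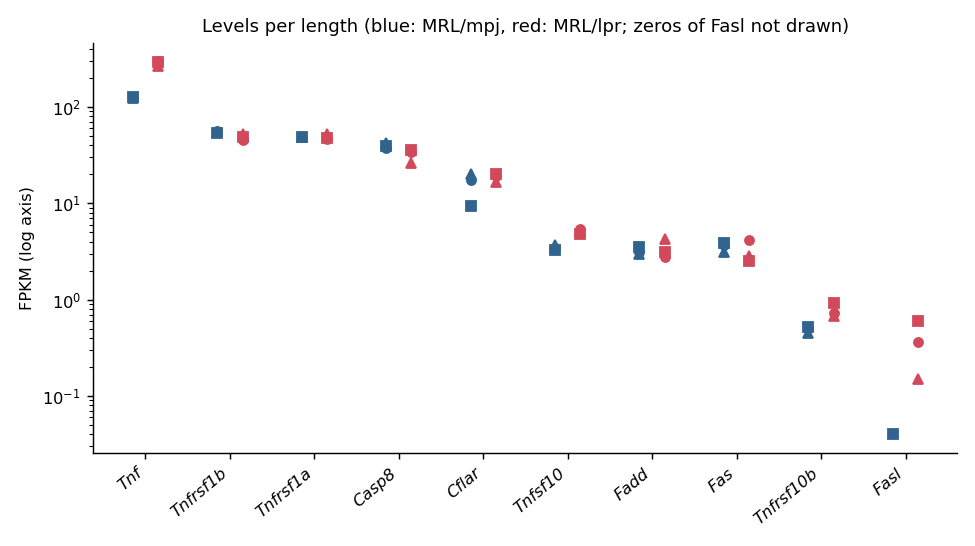
FPKM of the 10 members by strain on a log axis. Tnf is highest in both strains and Fasl lowest.

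The wider pathway was read from a list of 72 genes, all tested. Of these, 21 were higher in MRL/lpr, 3 lower and 48 did not pass the test, where 11.1% of all genes tested were called higher and 9.06% lower. The median log2 fold change was 0.17 over the list and -0.01 over all genes tested. The number higher was 13 without MRL/mpj replicate 1 and 13 without MRL/mpj replicate 2, and the number lower was 1 without MRL/mpj replicate 1 or replicate 3. Genes named here other than those past the fold minimum, Dusp1 and Tnfaip3 were chosen after their values were seen. Of 10 ligand and shedding genes, 4 were higher and 0 lower. Tnfsf13b, which encodes the B cell survival factor BAFF, rose from 5.09 to 34.3 CPM (log2 fold change 2.75, edgeR adjusted p = 1.41e-06). Ltb, which encodes lymphotoxin beta, rose from 3.90 to 16.4 CPM (2.07). Rhbdf2, which encodes iRhom2, the carrier that brings the TNF-shedding protease to the cell surface, rose from 24.9 to 53.3 CPM (1.10). The gene of that protease, Adam17, did not pass the test (227 CPM in MRL/lpr, 231 in MRL/mpj, log2 fold change -0.02, edgeR adjusted p = 0.952). Tnfsf12 was the other ligand higher (log2 fold change 0.80), a call lost in 3 of 17 alternatives.

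Of 12 receptor genes, 3 were higher and 3 lower, against 11.1% and 9.06% of all genes tested. Tnfrsf12a, the receptor of the Tnfsf12 product, had a log2 fold change of 1.25 (edgeR adjusted p = 0.00221). Cd40, a costimulatory receptor, was at 4.02 against 1.92 CPM (log2 fold change 1.07), and Tnfrsf26 at 2.14 against 1.01 (1.08), and their calls were lost in 5 and 8 of 17 alternatives. Tnfrsf21, a death receptor (-0.42), and Tnfrsf22 (-0.52) and Tnfrsf23 (-0.45), decoy receptors of TRAIL, fell. The calls of Tnfrsf22 and Tnfrsf23 were lost in 10 and 4 of 17 alternatives. Tnfrsf22, Tnfrsf23 and Tnfrsf26 are similar neighbouring genes whose reads could be split between them.

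For each role below, the shares of all genes tested were 11.1% higher and 9.06% lower. In the TNFR1 complex, 4 of 18 genes were higher and 0 lower. Among them were Birc3, which encodes a ubiquitin ligase (log2 fold change 0.96, edgeR adjusted p = 0.000463), Traf1 (0.998) and Rnf31 (0.42). The calls of Traf1 and Rnf31 were lost in 4 and 8 of 17 alternatives. Of 12 brakes, 3 were higher and 0 lower. Dusp1, a phosphatase of stress kinases, was at 1658 against 917 CPM (log2 fold change 0.85). Tnfaip3, which encodes the NF-kappaB inhibitor A20, was at 1336 against 857 CPM (0.64), and Tnip1, its partner, had a log2 fold change of 0.32. The Tnip1 call was lost in 10 of 17 alternatives, and that of Tnfaip3 in 1, without MRL/lpr replicate 3. Of 16 executioner genes, 4 were higher and 0 lower, among them Bak1 (0.70), Parp1 (0.66) and Daxx (0.47). The call of Daxx was lost in 9 of 17 alternatives and that of Bak1 in 1, without MRL/mpj replicate 1. Of 4 necroptosis genes, 3 were higher and 0 lower, and Pgam5 did not pass the test (log2 fold change -0.30, edgeR adjusted p = 0.0762). Zbp1, an interferon-induced nucleic acid sensor that recruits RIPK3, rose from 1.21 to 20.9 CPM (4.10, edgeR adjusted p = 8.41e-07), Ripk3 from 9.86 to 13.9 (0.50) and Mlkl, the pore-forming effector, from 1.82 to 3.65 (1.004). The calls of Ripk3 and Mlkl were each lost in 5 of 17 alternatives.

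**Figure D5:**
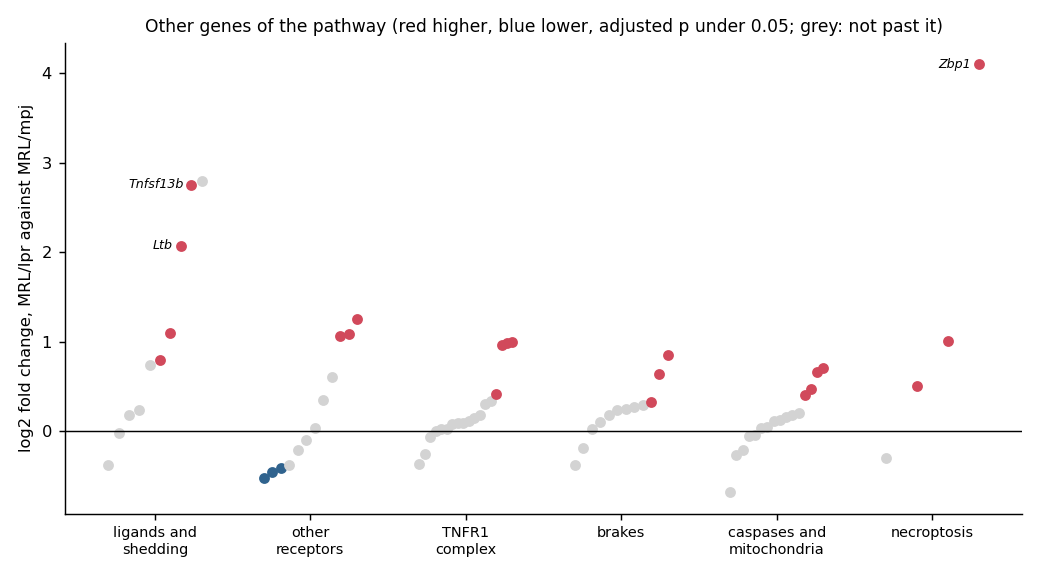
Log2 fold changes of the 72 pathway genes by role, MRL/lpr over MRL/mpj. Zbp1 stands highest, and among the ligands called higher Tnfsf13b and Ltb do; the grey point beside Tnfsf13b is Tnfsf11 (2.80), which did not pass the test (edgeR adjusted p = 0.183).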

How the data were processed

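RNA-seq of 3 MRL/lpr and 3 MRL/mpj microglia preparations was used, grouped by the labels. The submitters' processing notes name cutadapt 1.9.3, HISAT2 2.0.4, Cuffdiff 2.2.1, Cufflinks and the build GRCm38, with no role or order; the counting tool, annotation and strand setting are not given in the sources used here. The labels describe removal of ribosomal RNA and a stranded kit, the methods purification of mRNA. The deposited values are raw gene counts, not normalized, and FPKM that the authors computed per library. Symbols and coordinates came from GENCODE M21 (GRCm38), which matched 55141 of 55401 identifiers. Counts were tested with edgeR 4.0.16 in R 4.3.3 (filterByExpr, minimum count 10 and total 15, TMM, robust quasi-likelihood fit, Benjamini-Hochberg over the 19554 genes tested), without covariates. CPM of members and pathway genes are TMM-scaled and those of summed marker lists are scaled by library size. Errors are SD over libraries, and intervals cover the model error. FPKM ratios were compared with exact permutation tests in R 4.3.3. Alternatives were DESeq2 1.42.0, limma 3.58.1 on log2(FPKM + 1) and log2(FPKM + 0.1), other scalings and filters, counts divided by 4, dispersions that are not robust, the replicate number as a block, and leaving out each library in turn. Of these steps, the edgeR fits with and without the replicate block and the DESeq2 fit were run on simulated counts with known changes. The simulated counts did not hold the steps seen at low counts. Named are all members, pathway genes past both thresholds, the 3 pathway genes of highest FPKM, and the 3 genes most like Fas; of the top markers of the cell type lists, those beside a result are named and the rest are part of their list's sum. The lists hold markers of microglia, border macrophages, monocytes, neutrophils, T, NK and B cells, endothelium, choroid plexus, astrocytes, neurons and oligodendrocytes. Some genes that the rule or a count covers are not reported here. The members and lists were chosen with earlier results of these data known.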

Additional observations from a re-analysis of the deposited data

How the results depend on the processing

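Over the 17 alternatives, 168 member fold changes were recomputed, of which 149 kept direction and side of the threshold, 12 lost their call and 7 turned sign. Tnf and Tnfsf10 kept their call in all 17. The cause of the changes below was not tested. Members higher numbered 2 to 4 with a library left out. Members past the fold minimum numbered 1 with at least 10 counts in every library, 1 with counts divided by 4 (in both of these Fasl could not be tested) and 1 with limma on log2(FPKM + 1), and 1 to 2 with a library left out. Members lower were 0 in all 17. Pathway genes higher numbered 13 to 18 with a library left out, the fewest without MRL/mpj replicate 1 or replicate 2. Pathway genes lower numbered 5 with library size only, 6 with limma at either pseudocount, 1 with the replicate block, and 1 to 3 with a library left out. The fold change of Tnfrsf1a turned to -0.016 with library size only, -0.015 with log2(FPKM + 1) and -0.015 with log2(FPKM + 0.1). With a library left out, fold changes ran from -0.28 to 0.089 for Fas (0.0013 without MRL/mpj replicate 2), -0.12 to 0.022 for Tnfrsf1b and -0.014 to 0.35 for Fadd. With library size only, the median of all genes tested was -0.13 in place of -0.01.

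Same-numbered libraries of the strains did not deviate together (correlations of -0.08, -0.06 and -0.21 over 5474 genes), where other pairs ran from -0.13 to 0.19. With 3 libraries per strain, this cannot exclude that the numbers pair them. With the replicate block, 3 members and 15 pathway genes were higher, 3063 of all genes were called in place of 3950. For the log2 ratio of Cflar to Casp8, whose mean difference the block cannot change, the exact sign-flip permutation p was 0.25, the smallest that 3 pairs allow. The number of libraries and the low counts of Fasl and Tnfrsf10b limit what could be detected.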
